A study of Mus musculus with 46 samples.

Results

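The constructs described here carry 2 candidate cis-regulatory elements (cCREs) of the mouse Nanog locus side by side in a reporter plasmid. They were taken from the table of all Upstream combinations as the rows of the Nanog library with a cCRE in both positions and an activity above 0 in all 3 biological replicates. This gave 10152 pairs of 10536 such rows, among 89293 rows of the whole table. The other 384 rows (3.64%) had a replicate at 0 and were left out. The 10152 pairs hold 105 cCREs, of which 99 were measured in position 1 and 103 in position 2. They cover 2757 combinations regardless of order, a few of them of a cCRE with itself, where 5460 combinations of different cCREs are possible. A cCRE met a median of 94 constructs in position 1 and 92 in position 2, so pairs that share a cCRE are not independent of each other.

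The study asked how far regulatory fragments differ in which partners they work with, using a massively parallel reporter assay. The 3 cDNA samples used here are biological replicates of E14TG2a, an established mouse embryonic stem cell line with no engineered change named in the labels. They were grown in 2i+LIF, in which inhibitors of kinases together with the cytokine LIF keep the cells pluripotent. Each replicate was a nucleofection of the cells with a mix of the Klf2, Nanog and negative control Upstream plasmid libraries, and RNA was taken after 24 h. All 3 received the same plasmid pool, which was also sequenced as 2 technical replicates of plasmid DNA. The plasmids were transiently transfected, so the fragments were read outside their chromosomal place. The assay reads reporter barcodes and no endogenous transcripts, so markers of the cell type could not be checked.

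An enhancer is a stretch of DNA that binds transcription factors and raises transcription from a promoter, and a silencer lowers it. Nanog encodes a homeodomain transcription factor that sustains pluripotency, and enhancers near it and farther before it have been described in embryonic stem cells. The cCREs tested here also lie near Dppa3 and Gdf3, genes expressed in pluripotent cells, near Slc2a3, which encodes a glucose transporter, and near the Clec4 genes of C-type lectin receptors.

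Activity is the ratio of reporter barcodes in cDNA to those in plasmid DNA, on a linear scale. The same plasmid without any fragment read 0.122, 0.07 and 0.24 in replicates 1, 2 and 3. The median pair read 0.166, 0.0951 and 0.300, close to that background. In all 3 samples 3005 pairs (29.6%) exceeded 2 times the plasmid without fragments. Over the pairs, any 2 replicates correlated at a Pearson's r of 0.88 to 0.90 on the log2 scale. Replicate 2 had the lowest background and 310 of the rows at 0, against 89 in replicate 1 and 1 in replicate 3. Barcode and read numbers behind each value were not analysed here, so the depth is unknown. Single cCREs and pairs were built as separate libraries and mixed before transfection, per the labels. Neither labels nor file headers say which position lies next to the reporter, nor where in the plasmid a cCRE sits when it is alone.

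Few of the cCREs were active alone. Of 202 oriented cCREs, a cCRE read in either strand direction being counted for each orientation (+ or -), 19 from 11 cCREs had a geometric mean activity of at least 1 and are called active here. A further 26 lay between 0.25 and 1 (intermediate) and 157 below 0.25 (inactive). E074+ was the highest, at 4.01, 4.02 and 3.70 in the 3 samples. It was followed by E073+ at 3.67 ± 0.17, E073- at 3.43 ± 0.15, E005- at 3.21 ± 0.18 and E134+ at 2.74 ± 0.16 (SD, n = 3). The ranges of mean ± SD of neighbours among the first 4 overlap, although their order was the same in every sample, and E134+ lay below the other 4 in every sample without such an overlap. E073 (chr6:122702445-122702895, mm10) and E074 (chr6:122702829-122703279) share 66 bp and lie 4.59 and 4.21 kb before the Nanog gene, outside any annotated gene. E064 (chr6:122662793-122663243) lies 44.2 kb before Nanog, outside any annotated gene, with Dppa3 as the nearest. E005 lies near Phc1, which encodes a Polycomb group protein, and E134 near Clec4b2, 497 kb after Nanog.

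What a pair put out followed the cCREs it held. Pairs of 2 inactive cCREs had a mean of the 3 sample medians of 0.133 ± 0.097 (SD, n = 3; 5783 pairs), with each sample's median at or below the plasmid without fragments. Pairs with an active cCRE in position 2 and an inactive one in position 1 read 2.20 ± 0.09 (816 pairs), and the same classes in the opposite positions read 1.22 ± 0.06 (1061 pairs). Pairs of 2 active cCREs were the highest, at 5.16, 5.61 and 4.53 in the 3 samples (120 pairs). The classes with an active cCRE lie above those without one in every sample. Of 2307 pairs with at least 1 active cCRE, 1623 (70.4%) read at least 1 in all 3 samples, against 3 of 5783 pairs (0.0519%) of 2 inactive cCREs.

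**Figure D1:**
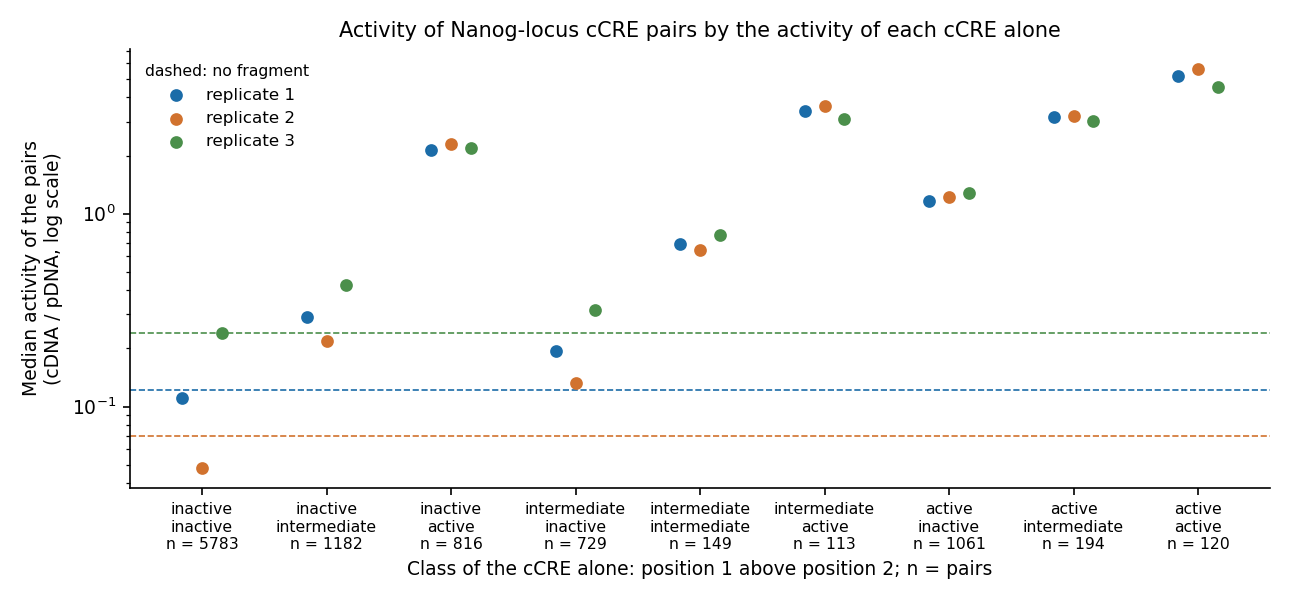
Median activity (cDNA over pDNA, log axis) of the Nanog-locus cCRE pairs in each replicate, by the class of the cCRE alone in position 1 and position 2; each point is the median of 1 sample and dashed lines mark the plasmid without fragments. The 5783 pairs of 2 inactive cCREs sit at the background, pairs with an active cCRE in position 2 near 2.20, the opposite placement near 1.22, and pairs of 2 active cCREs near 5.10.

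Each pair was then set against its cCREs alone, within each sample, with limma across all constructs of the mix with 2 fragments and Benjamini-Hochberg adjustment at 0.05. Against the position 1 cCRE alone 1854 of 10152 pairs were higher and 1055 lower, where 19.6% and 14.4% of all constructs fitted were called higher and lower. Against the position 2 cCRE alone 1403 of 10147 pairs were higher and 249 lower, beside 12.6% and 2.5% of all constructs. The shares among the pairs (18.3%, 10.4%, 13.8% and 2.45%) therefore stand near or below those of all constructs. The per-sample median log2 ratio was -0.05 ± 0.06 to the position 1 cCRE alone and 0.02 ± 0.03 to the position 2 cCRE alone (SD, n = 3; exact sign-flip permutation test over samples, two-sided, p = 0.5 for both, where 0.25 is the smallest p that 3 samples allow). Over single constructs the median was -0.11 against position 1, equal to that of all constructs fitted, and -0.04 against position 2, where all constructs had -0.06. Without replicate 1 the calls against position 1 fell to 1046. Against position 2, limma called none without replicate 1 or without replicate 2 (2079 and 2675 at an unadjusted p under 0.05) and 876 without replicate 3. With pair and cCRE as unpaired groups 1784 were called against position 1.

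Many of the calls came from pairs that joined a stronger cCRE to a weaker one. An active cCRE in position 2 raised 806 of 816 pairs above their inactive position 1 cCRE alone, and an active cCRE in position 1 raised 872 of 1061 above their inactive position 2 cCRE alone. Of 5783 pairs of 2 inactive cCREs, 162 were higher and 186 lower than position 1 alone, and 57 higher and 34 lower than position 2 alone. Pairs without an active cCRE were called too: 574 of 1182 pairs of an inactive cCRE before an intermediate one exceeded position 1 alone, and 315 of 729 pairs of an intermediate cCRE before an inactive one were lower than position 1 alone. Intermediate cCREs were raised as well: 108 of 113 pairs of an intermediate cCRE before an active one exceeded the intermediate cCRE alone. Where a weaker cCRE was joined to a stronger one, its activity alone both set the class and served as the baseline. The counts of such pairs called higher therefore follow largely from how the classes were cut.

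An active cCRE lost more of its output when it stood in position 1. Of the 1061 pairs with an active cCRE in position 1 and an inactive one in position 2, 530 were lower than the active cCRE alone and 7 higher. In the opposite placement 104 of 816 were lower and 30 higher. These counts come from different tests, which called 14.4% and 2.5% of all constructs lower, so they are not directly comparable. The activities below do not depend on the calls. E074+ read 3.91 ± 0.18 alone. In position 1 before inactive cCREs its median pair read 1.83, 2.14 and 1.90 (141 pairs), and in position 2 after inactive cCREs 3.27, 3.21 and 3.02 (110 pairs). All 3 values in position 1 lie below all 3 in position 2, and these below all 3 alone. E073+ went from 3.67 ± 0.17 alone to 2.00 ± 0.20 in position 1 (113 pairs) and 2.99 ± 0.24 in position 2 (47 pairs). E064+ showed the widest gap in this direction: alone it read 2.13 ± 0.07, in position 1 0.806 ± 0.093 (122 pairs) and in position 2 2.53 ± 0.19 (105 pairs). In position 2 E064+ and E090- stood above their values alone in every sample, at 1.18 ± 0.05 and 1.14 ± 0.04 of them, while E064+ in position 1 kept 0.378 ± 0.042.

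Of the 13 oriented active cCREs with at least 5 inactive partners in each position, position 2 gave the higher median in all 3 samples for 11. E005+ was higher in position 2 in 2 samples, at 1.92 ± 0.29 against 1.60 ± 0.30, a difference within its spread. E023-, from the gene body of Rimklb, went the other way in every sample, with 2.37 ± 0.15 in position 1 and 0.782 ± 0.064 in position 2, from 6 and 5 pairs. E116-, near Clec4a1, kept 0.425 ± 0.068 of its output in position 1 and 0.895 ± 0.023 in position 2.

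**Figure D2:**
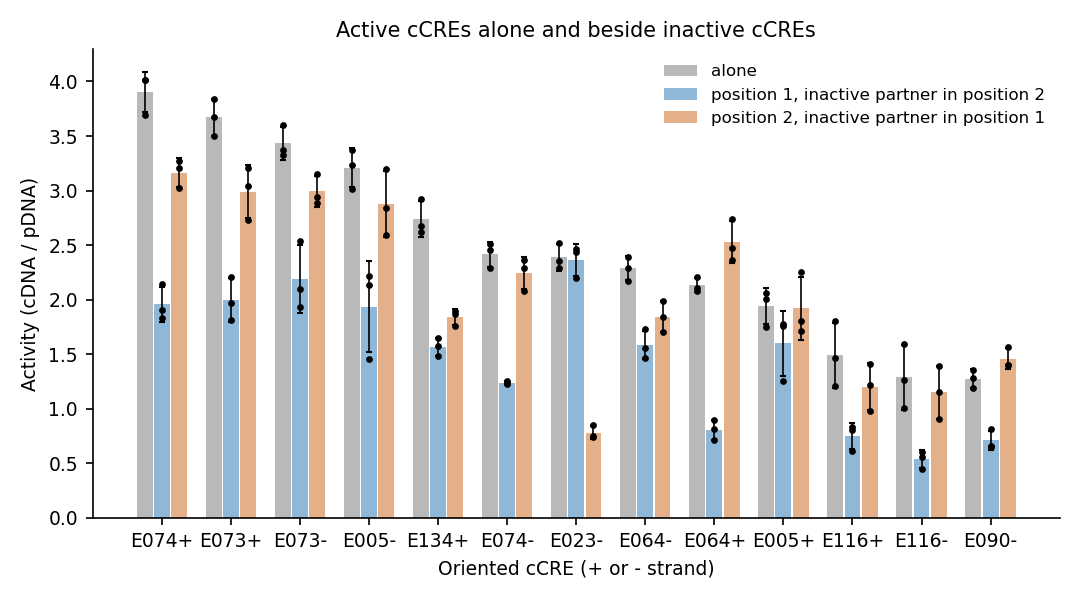
Activity (cDNA over pDNA) of 13 oriented active cCREs alone, and the median pair of each in position 1 or position 2 beside inactive cCREs; bars are means of 3 replicates, error bars SDs and points the replicates. E074+ stands at 3.91 alone, 1.96 in position 1 and 3.16 in position 2, and E023- is the exception, with 2.37 in position 1 and 0.782 in position 2.

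The same 2 cCREs in the same orientations were measured in both orders 2504 times, and limma called 368 of these comparisons (14.7%), beside 23.9% of all such comparisons of the mix, which also hold promoters. Where an active cCRE was joined to an inactive one (617 comparisons), placing the active one in position 1 gave a median log2 difference of -0.81, -0.74 and -0.65 to placing it in position 2. Of these, 470 were lower with the active cCRE in position 1 in all 3 samples and 56 higher. The calls were 232 lower and 13 higher. For 2 active cCREs (44 comparisons) the median difference between placing the stronger in position 1 and in position 2 was 0.03 ± 0.08 (SD, n = 3), with 2 called higher and 4 lower. No order was called without replicate 1 or without replicate 3 (430 and 617 at an unadjusted p under 0.05), and 66 were called without replicate 2.

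Named by the size of the difference, the order of E064+ and E094+, a cCRE in the gene body of Slc2a3, changed the output from 0.610, 0.471 and 0.587 with E064+ in position 1 to 4.43, 4.57 and 4.46 with it in position 2. This is 8.12-fold, with no overlap of the samples (limma, adjusted p = 0.00934). E064+ was also higher in position 2 with E032+, from the gene body of Mfap5: E032+ before E064+ read 4.69 ± 0.60 and E064+ before E032+ 0.715 ± 0.242 (6.83-fold, adjusted p = 0.0107). The largest order difference among those that passed was that of E111- and E082-, at 1.51 ± 0.31 with E082- in position 2 and 0.151 ± 0.057 with it in position 1 (10.2-fold, adjusted p = 0.00949). E088+ before E057+ read 2.08 ± 0.31 against 0.264 ± 0.102 in the opposite order, and E089+ before E118- 1.05 ± 0.44 against 0.137 ± 0.111. The log2 difference of the latter went from 3.15 to 2.34 without replicate 2. E071- before E121- read 1.30 ± 0.14 and E121- before E071- 0.190 ± 0.103 (7.42-fold, adjusted p = 0.0164).

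The effect of a cCRE on its partners was taken as the mean log2 ratio of its pairs to the partner alone. In position 2, E073 had 4.04 ± 0.94 (SD, n = 3; 180 pairs), E074 3.84 ± 0.91 (284), E064 3.72 ± 0.89 (245), E005 3.51 ± 0.78 (50) and E134 2.81 ± 0.72 (82). In position 1, E073 had 3.69 ± 0.93 (196), E074 3.35 ± 0.92 (345), E064 2.99 ± 0.84 (319), E005 2.88 ± 0.71 (39) and E023 2.64 ± 0.80 (17). The SDs of neighbours in these orders overlap, although the order was the same in every sample. In each of these cCREs replicate 2 was highest and replicate 3 lowest, in the reverse order of the background of the plasmid without fragments. E073 pairs exceeded the partner alone in 181 of 196 tests in position 1 and 175 of 180 in position 2, and none was lower. For E073 in position 1 the mean log2 ratio was 3.98 ± 1.10 with inactive partners and 1.38 ± 0.16 with active ones. For E074 these were 3.66 ± 1.09 and 1.07 ± 0.14. The activity of the partner alone sets these classes and is also the denominator. A smaller ratio with active partners is therefore built in, and says nothing about how the cCREs act together. Over the 82 cCREs with at least 10 pairs in each position, Pearson's r between the effect in position 1 and in position 2 was 0.94, as a description over cCREs that were measured with overlapping sets of partners.

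At the other end, the 5 lowest mean effects in position 1 were those of E110 (-0.96 ± 0.40), E062 (-0.93 ± 0.40), E051 (-0.79 ± 0.33), E049 (-0.76 ± 0.35) and E133 (-0.74 ± 0.22). In position 2 they were those of E076 (-1.22 ± 0.46), E068 (-1.14 ± 0.55), E110 (-1.0 ± 0.35), E049 (-1.0 ± 0.25) and E104 (-0.96 ± 0.47). E076 and E068 lie 5.30 kb after and 32.0 kb before Nanog, and E110 lies near C3ar1, which encodes a complement receptor. In position 1, 48 of 84 cCREs had an effect below 0 in all 3 samples and 24 above 0. In position 2 these were 58 and 27 of 91. Inactive partners read near the background, where there is little room to fall.

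Active partners leave that room, and beside them a few inactive cCREs stood low in position 1. Each of the active partners below was read at 1 or more alone, and the sets of partners overlap, so the pairs of a cCRE are not independent. Over 64 inactive cCREs with at least 5 such pairs in position 1 the median effect was -0.22 on the log2 scale, and over 72 in position 2 it was -1.08. E133 (chr6:123210779-123211229), near Clec4b2, had -2.63, -2.79 and -2.27 in position 1, where 17 of 17 pairs were called lower than their active cCRE alone. In position 2 it had -2.88, -3.26 and -2.32, with 16 of 17 called lower. This is 5.98 and 7.31 times lower on average. Alone, E133+ read 0.198, 0.116 and 0.311, above the plasmid without fragments in each sample, and E133- 0.120, 0.0555 and 0.246, near it.

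E062 (chr6:122659538-122659988), 47.5 kb before Nanog and outside any annotated gene, had -1.61 ± 0.14 in position 1, with 12 of 18 pairs called lower, and -2.78 ± 0.41 in position 2, with 17 of 17. E110 (chr6:122862400-122862850) had -1.89 ± 0.25 with 13 of 14 and -2.04 ± 0.20 with 15 of 15. These 3 cCREs had the lowest effects on active partners in position 1, and every one of their pairs with an active cCRE lay below that cCRE alone in all 3 samples, in either position. In position 2 E133 and E062 were lowest, and the next effects ran on without a gap: E112 had -2.15 ± 0.38 (7 of 10 called lower), E068 -2.13 ± 0.29 (13 of 13), E110 the value above, E105 -1.98 ± 0.29 (16 of 16) and E037 -1.93 ± 0.26 (15 of 16). There 40 of the 72 cCREs had a mean effect below -1, against 6 of the 64 in position 1. E068 in position 1 had -0.78 ± 0.07. For comparison, 104 of all 816 pairs of an inactive cCRE before an active one were called lower, and 530 of all 1061 in the opposite placement. E133, E062 and E110 beside active partners were singled out after their values were seen. The calls in position 1 rest on the test against position 2 alone, which made none without replicate 1 or 2, while the per-sample effects above do not depend on it.

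Some inactive cCREs went the other way in position 1. E029 had a mean effect of 0.66 ± 0.06 on active partners (4 of 13 called higher, none lower) and E121 0.63 ± 0.09 (3 of 11 higher). The 13 pairs of E029 include E029- before E134+, which had a log2 ratio of 2.77 to E134+ alone. In position 2 E029 had -0.41 ± 0.11, with none of 16 pairs called. There 12 pairs lay below the active cCRE alone in all 3 samples and none above it. In position 2 E121 had 0.25 ± 0.12, with 1 pair called higher and 1 lower of 19. The effects in position 1 and position 2 over 63 inactive cCREs had Pearson's r of 0.73, again as a description over cCREs that share partners.

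**Figure D3:**
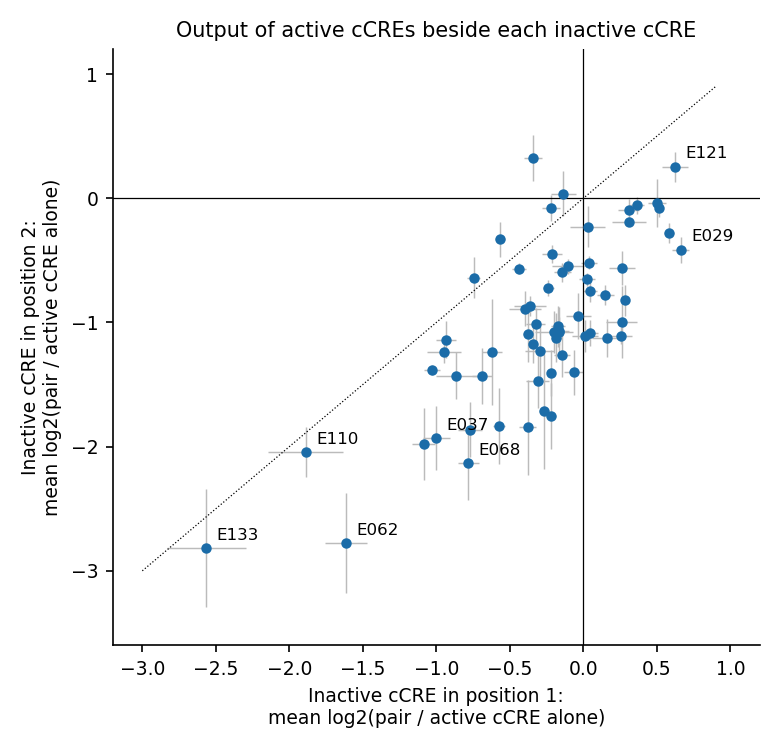
Mean log2 ratio of pairs to their active cCRE alone, for 63 inactive cCREs with at least 5 such pairs in each position; the x axis gives the inactive cCRE in position 1, the y axis in position 2, points are means and bars SDs of 3 replicates, and the dotted line marks equal values. Most points lie below the line, and E133, E062 and E110 lie lowest on the x axis, at -2.56, -1.61 and -1.89.

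The sum of both single activities is the output that 2 cCREs would give if each added its own share on the linear scale. Set against that sum, 6621 of 10147 pairs were lower and 299 higher (limma), beside 68.2% and 2.42% of all constructs. Each single activity includes the background of the plasmid, so the sum counts it 2 times. With the plasmid without fragments subtracted once from the sum, an alternative chosen after seeing the data, 1255 of 10080 pairs were lower and 257 higher, beside 17% and 2.49% of all constructs, and 1241 of the pairs called before had the opposite sign. The per-sample median log2 ratio was -1.05 ± 0.06 to the sum and -0.27 ± 0.10 after the subtraction (exact sign-flip permutation test over samples, two-sided, p = 0.25 for both, the smallest 3 samples allow). The calls against the plain sum fell from 6920 to 2879 without replicate 1, to 3771 without replicate 3 and to 961 with unpaired groups. The values below use the subtracted sum.

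Pairs of 2 active cCREs came near their sum. The median log2 ratio was 0.11, 0.14 and -0.002 in the 3 samples over 120 pairs, with 14 called higher and 13 lower. An active cCRE in position 1 with an intermediate one in position 2 gave 0.22 ± 0.06 (194 pairs, 39 higher and 18 lower), and with an inactive one -0.94 ± 0.10 (1061 pairs, 9 higher and 565 lower). An inactive cCRE before an active one gave -0.22 ± 0.04 (816 pairs, 44 higher and 149 lower). The single activities that set these classes also enter the sum. E073 and E074, which overlap, were joined in 8 constructs that read 3.77 to 5.78. All 8 lay below the sum in all 3 samples, at a median of -0.45, -0.46 and -0.51, but none passed the test. The other 112 pairs of 2 active cCREs had 0.12 ± 0.10, with 57 above and 37 below the sum in all 3 samples. The difference between these groups was not tested. Shortfalls of this size were also seen without overlap. E134+ before E074- had -0.83 and E074+ before E134+ -0.76, both called lower (limma, adjusted p = 0.0431 and 0.0441). E074- before E134+ had -0.55 and E134+ before E074+ -0.23, and neither was called.

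The 5 pairs with the highest output each joined a cCRE that was active alone to one that was intermediate or inactive alone. E029- before E134+ read 22, 19.6 and 15.1, the highest of all pairs. E134+ alone read 2.62, 2.67 and 2.93 and E029-, from the gene body of Mfap5, 0.122, 0.0613 and 0.242. The pair is 6.84-fold above its sum (log2 2.77 ± 0.21, SE; limma, adjusted p = 0.0103), with no overlap of the samples. The second was E064- before E082- at 14.8, 14.1 and 13.0, the third E073+ before E082- at 12.1, 16.8 and 12.2, the fourth E043+ before E064- at 13.03, 12.03 and 9.91, and the fifth E074+ before E082- at 12.1, 10.1 and 7.32. These stand 5.57, 3.48, 4.63 and 2.34-fold above their sums (limma, adjusted p = 0.00949, 0.0133, 0.0107 and 0.0307). E074+ before E082- lost its call against the plain sum without replicate 1 (adjusted p = 0.0568). E043 lies in the gene body of Apobec1, which encodes a cytidine deaminase, and E043+ read 0.361 alone.

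E082 recurred in 3 of these 5 pairs, always in position 2 and in the - orientation. It lies 27.7 kb after Nanog in the gene body of Slc2a3 (chr6:122742382-122742832), and E082- alone read 0.353, 0.246 and 0.473. All 5 constructs of an active cCRE before E082- were called above their sum, with 8.01 to 13.9 as geometric mean. The 5 same partners were also measured before E082+. E064- read 2.14, 2.75 and 2.23 before E082+ and 14.8, 14.1 and 13.0 before E082-. Before E082+ none of the 5 partners rose above 2.85 in any sample, and before E082- none fell below 5.98. The ratio of - to + was 6.33 for E064+, 5.90 for E064-, 5.64 for E073+, 4.12 for E074+ and 4.37 for E074- (limma, adjusted p = 0.0187, 0.0187, 0.0187, 0.0238 and 0.0253). These partners are 3 cCREs, E073 and E074 overlap, and E082 was singled out after its values were seen.

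E082- read lower in position 1 and beside inactive cCREs, a difference that was not tested. In position 1 before 7 active constructs the median pair read 4.56, 4.55 and 4.03, at a log2 ratio to the sum of 0.75 ± 0.11, with 4 called higher and none lower. In position 2 after 9 inactive constructs the median was 0.321 ± 0.104, with a log2 ratio of -0.16 ± 0.17 and 1 called higher. The highest of these 9 was E111- before E082-. The 79 constructs with E082- in position 1 had a median of 0.229 ± 0.094. Alone, E082+ read 0.156 ± 0.099, below E082- in every sample.

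**Figure D4:**
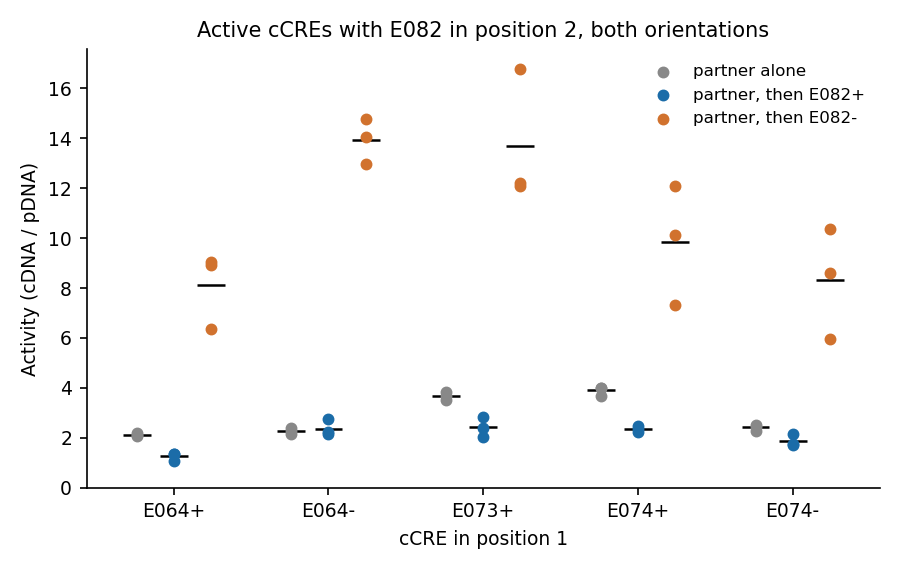
Activity (cDNA over pDNA) of 5 oriented active cCREs alone and with E082 in position 2 in either orientation; points are the 3 replicates and lines their means. With E082- the means run from 8.11 to 13.9, and with E082+ from 1.27 to 2.42, near or below the partners alone.

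Relative to their sum, pairs of weak cCREs also stood high. E071+ before E121+ read 1.18, 1.24 and 1.23, 9.41-fold above its sum (adjusted p = 0.0364), and E113- before E121+ 1.00, 2.17 and 2.38, 8.33-fold above it (adjusted p = 0.0141). E121+ alone read 0.0583 in replicate 1, below the 0.122 of the plasmid without fragments there, and 0.354 in replicate 3. In replicate 1 the subtracted sum of an E121+ pair is therefore smaller than the activity of its partner alone. The median log2 ratio of E121+ pairs with inactive cCREs to the sum was 1.95, 1.2 and 0.31 in replicates 1, 2 and 3. E120+ before E057+ read 2.91, 4.34 and 4.83, 6.94-fold above its sum (adjusted p = 0.0097). Together with E029- before E134+ and E064- before E082- these are the 5 largest ratios to the plain sum that passed. Ranked by the subtracted sum, E114- before E121+ (0.546, 0.848 and 1.09, 6.95-fold) takes the place of E064- before E082-. The ratios of the E121+ pairs were smaller against the plain sum. Before E121+, E071+ had a log2 ratio of 2.22 to the plain sum and 3.23 to the subtracted one. For E113- these were 2.36 and 3.06, and for E114- 1.67 and 2.80. Of the 5783 pairs of 2 inactive cCREs, the 3 that read at least 1 in every sample were E071+ before E121+, E113- before E121+ and E071- before E121-, all with E121 in position 2. The log2 ratio of E071+ before E121+ to the plain sum went from 2.22 to 2.81 without replicate 3. The pair lost its call against the plain sum without replicate 1 and with unpaired groups (adjusted p = 0.0658 and 0.0576). E121 and E120 share 284 bp near Clec4a4. E071 lies 12.1 kb before Nanog and E113 near Necap1. Over its 96 inactive partners E121+ in position 2 had a median of 0.311 ± 0.117, with 16 called above the sum and none below. These calls all share the low reading of E121+ alone in their sums.

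The 5 pairs farthest below their sum all held a cCRE that was active or intermediate alone. E020- before E136+ read 0.0141, 0.00941 and 0.122, where E136+ alone read 0.792 on average (log2 -4.90 ± 0.79, SE; adjusted p = 0.0326). E133+ before E136+ read 0.0195, 0.0130 and 0.122 (adjusted p = 0.0262), and E136- before E068+ 0.0292, 0.0158 and 0.127 (adjusted p = 0.0258). E116- before E104+ read 0.0972 ± 0.117 where E116- alone read 1.29, and E031- before E110- 0.0748 ± 0.09 where E031- alone read 0.828. Relative to the plain sum, the log2 ratios of these 5 pairs, -5.14 to -4.55, went to -6.12 to -5.43 without replicate 3, and that of E031- before E110- to -3.69 without replicate 2. The last lost its call against the plain sum without replicate 1 (adjusted p = 0.0507). All 5 lie below the plasmid without fragments in every sample, at values near those where rows fall to 0. E136, near Clec4d, was held by 3 of them. E136+ in position 2 was called below the sum in 41 of 82 pairs and above it in none.

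Fewer comparisons were called for orientation. With only the position 1 cCRE turned, 93 of 2777 comparisons were called (3.35%), beside 5.11% of all comparisons of the mix. With only the position 2 cCRE turned, 188 of 3674 were called (5.12%), beside 10.2%. The median absolute log2 difference was 0.43 and 0.47, against 0.57 for exchanging the order. A difference over 2-fold was seen in 15.2% of position 1 flips and 18.6% of position 2 flips, most of them not called. Among comparisons with a geometric mean activity of at least 0.25, 495 of 1129 and 692 of 1395 were called. The share of all comparisons of the mix called under this filter is not given here. These counts therefore cannot be set beside the 5.11% and 10.2% above. No flip of either kind was called with any 1 replicate left out (401 to 477 and 463 to 717 at an unadjusted p under 0.05), and 108 flips in position 2 were called with unpaired groups. With a prior variance that follows mean activity 499 and 679 were called.

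E134 gave the 3 largest differences in position 1. Before E132+ it read 6.56, 8.40 and 5.23 as E134+ and 0.314, 0.216 and 0.303 as E134-, a 24.1-fold difference (limma, adjusted p = 0.0263). Before E033- and E054+ the differences were 11.5 and 9.74-fold. Alone, E134+ read 2.74 ± 0.16 and E134- 0.372 ± 0.093, so the orientation that was higher in pairs was also higher alone. E111, E023 and E057 showed the largest differences the other way in position 1: E111- exceeded E111+ before E082- 5.46-fold, E023- exceeded E023+ before E083+ 4.81-fold and E057- exceeded E057+ before E120- 4.73-fold. In position 2, E136- before E034+ read 2.36 ± 0.56 and before E034- 0.151 ± 0.087 (16.9-fold, adjusted p = 0.0224), E120+ before E057+ exceeded that before E057- 15.4-fold and E017- before E042+ exceeded that before E042- 10.8-fold. E057 did not differ by orientation alone beyond its spread, at 0.231 ± 0.111 and 0.235 ± 0.095. In the other direction E082- exceeded E082+ 16.7-fold after E111- and 6.33-fold after E064+, and E031- exceeded E031+ 6.03-fold after E096-. The log2 difference of E042 after E017- went from 3.43 to 4.10 without replicate 3, and that of E082 after E111- from -4.06 to -3.22 without replicate 2 and to -4.68 without replicate 3.

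Joining a cCRE to itself or to one that overlaps it gave 25 pairs, 10 of them with the same cCRE in opposite orientations. E116 read 1.29 to 1.49 alone on average, but E116- before E116+ read 0.781, 0.490 and 0.607 and E116+ before E116- 0.324, 0.114 and 0.763. E136- before E136+ read 0.304, 0.295 and 0.400, below either orientation alone. The overlapping E120 and E121 split by arrangement. The 4 constructs with a - fragment in position 1 and a + fragment in position 2 had geometric means of 0.80 to 0.940 and no sample below 0.607, and the 3 other constructs 0.162 to 0.201 and no sample above 0.332. These groups do not overlap, but the split by arrangement was not planned beforehand and the difference was not tested. All of these constructs are built from E120 and E121, so they are not independent of each other. Over pairs of cCREs that do not overlap, the median log2 ratio to the sum showed no steady trend with the distance between their places on the chromosome. Over all of them the median log2 ratio to the sum was -0.34 ± 0.12 within 50 kb and -0.35 ± 0.11 at 500 to 1000 kb, with -0.24 ± 0.09 and -0.25 ± 0.11 between. Pairs with at least 1 active cCRE had median log2 ratios to the sum of -0.58 ± 0.03 within 50 kb (352 pairs), -0.43 ± 0.05 at 50 to 200 kb, -0.40 ± 0.06 at 200 to 500 kb and -0.43 ± 0.05 at 500 to 1000 kb (211 pairs). Among these the pairs within 50 kb had the lowest median in every sample, a difference that was not tested.

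An additive fit of log2 activity on the oriented cCRE in each position described most of the variation among pairs. The identity of the position 1 cCRE took 38.3% of the sum of squares, that of the position 2 cCRE 50.4%, and 11.1% was left. Each share is the loss of fit when that position is left out. Fitted in each sample alone, position 2 took 46.6% to 48.8% and position 1 34.6% to 36.6%, so position 2 took more in every sample. The mean square left over was 1.68 times the error between samples. Log2 activity of a pair had Pearson's r of 0.58 with its position 1 cCRE alone and 0.69 with its position 2 cCRE alone.

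Pairs of 2 cCREs of the Klf2 locus, read in the same 3 samples, gave side by side 13.4% higher and 7.19% lower than position 1 alone, 7.13% higher and 1.70% lower than position 2 alone, and 9.42% of orders called. Nanog-locus cCREs before a Nanog-locus promoter gave 15.7% higher and 18.2% lower than the cCRE alone. The median log2 ratio to the subtracted sum was -0.17 ± 0.07 for the Klf2 pairs and -0.35 ± 0.14 for the cCRE and promoter constructs, against -0.27 ± 0.10 for the Nanog cCRE pairs. The ranges of mean ± SD overlap, and by this measure the Klf2 median was the highest and the promoter median the lowest in every sample. To the plain sum the medians were -1.10 ± 0.09 for the Klf2 pairs and -1.05 ± 0.06 for the Nanog cCRE pairs. There the Nanog median was the higher in every sample, so the order of Klf2 and Nanog pairs depended on the subtraction. These differences between libraries were not tested.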

How the data were processed

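The authors deposited, for each construct and biological replicate, an activity that is a linear ratio of cDNA to pDNA barcodes, for the pair and for each fragment alone. Per the labels' protocols, barcodes of reporter RNA and of plasmid DNA were amplified and sequenced, and inverse PCR reads linked barcodes to fragments. Bowtie2 and mm10 are named in the submitters' processing notes. Barcode filters, averaging over barcodes and the scaling are not given in the sources used here; a scaling per replicate cancels in the within-sample ratios tested. Columns were given to samples by replicate number and library mix.

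Log2 ratios were formed within each cDNA sample and their mean tested against 0 with limma 3.58.1 in R 4.3.3, with moderated variances and Benjamini-Hochberg adjustment at 0.05 over all constructs of the Klf2 and Nanog mix. The sample is the block, since a pair and its baseline share it; deviations of pair and position 2 baseline correlated at 0.08, 0.44 and 0.49 in the 3 samples. Activities are given as mean ± SD over 3 samples unless named otherwise. P-values measure the spread between 3 transfections of the same plasmid pool, and leave out differences between barcoded plasmids. Genes came from RefSeq (GRCm38.p6). Computations used Python 3.11.15 with numpy 2.4.6, pandas 2.3.3 and matplotlib 3.10.9.

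The rule for naming took the 5 highest and 5 lowest cCRE effects in each position (at least 10 constructs), the 5 highest cCREs alone, the 5 highest pairs, the 5 largest ratios to the sum in each direction, and the 3 largest orders and flips in each direction, among those that passed. The members and lists were chosen with earlier results of these data known. Alternatives were unpaired groups, a variance trend, rows at 0 kept with a pseudocount of 0.01, a filter on low activity, leaving out each replicate and weighting pairs equally.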

Additional observations from a re-analysis of the deposited data

How the results depend on the processing

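Called pairs kept their sign with rows at 0 kept and with any 1 replicate left out. Unpaired groups, the variance trend and the filter use the same ratios, so no sign could change there. Only the sum with the background subtracted turned signs. With unpaired groups (no replicate block) calls moved to 1784 against position 1 alone, 961 against the sum and 108 for position 2 flips, and changed by less than 1.5 times in the other tests. With the variance trend 664 orders, 499 position 1 flips and 679 position 2 flips were called. The filter on low activity, at a geometric mean of at least 0.25, gave 2950 calls against the sum, 618 orders, 495 and 692 flips. Subtracting the plasmid without fragments gave 1512 calls against the sum and a median of -0.27. Leaving out 1 replicate gave 1046 to 2727 calls against position 1, 0 to 876 against position 2, 2879 to 6129 against the sum, 0 to 66 orders and 0 flips in either position, by limma, where the fit of 2 samples has fewer degrees of freedom. The median ratio to position 1 alone turned to 0.56 under the filter, and that to position 2 alone went to 0.50 under it, to -0.0024 with rows at 0 kept and to -0.012 with cCRE combinations weighted equally; the filter removes the pairs near the background. The median to the sum went to -0.63 and -1.16 under the filter and the equal weights. Under the filter, which acts on the fitted values, position 1 took 45.1% and position 2 63.3% of the sum of squares. A share is the loss of fit when that position is left out, so both shares can together exceed the whole, as here. With each ordered combination averaged over orientations the shares were 35.0% and 52.7%, and without 1 replicate position 1 took 36.9% to 38.1%. Of the 14 named pairs, E071+ before E121+ and E114- before E121+ lost their call with unpaired groups (adjusted p = 0.0576 and 0.147), and without replicate 1 these and E074+ before E082- and E031- before E110- lost it. The 6 named orders lost theirs without replicate 1 or 3, and the 12 named flips with any 1 replicate left out. Depth could not be weighed, since barcode numbers were not used here, and ratios at the lowest activities rest on values near 0.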
